A study of Mus musculus with 8 samples.

Results

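To describe which Hox genes the murine mammary tumour lines transcribed, the 38 listed genes of the 4 Hox clusters were taken from the 27179 genes of the count table by Entrez identifier. They comprised 10 genes of Hoxa on chromosome 6, 10 of Hoxb on chromosome 11, 9 of Hoxc on chromosome 15 and 9 of Hoxd on chromosome 2. RNA-seq had been done on untreated cultures of 67NR, 66cl4, 4T1 and its derivative 4T1.2, each as 2 biological replicates, giving 8 libraries of 37159840 to 66269681 counts. The lines are related tumour lines of BALB/c mice, and 4T1.2 is a clone of 4T1 that spreads spontaneously from the mammary fat pad to bone. 66cl4 and 67NR have lower metastatic potential than 4T1 and 4T1.2. Each line is a single culture-adapted population, so a value describes that line and not a class of tumours.

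Hox genes encode homeodomain transcription factors that give cells a position along the body axis. Within a cluster the genes lie in the order of their paralogue groups, from group 1 at the anterior end to group 13 at the posterior end, and genes of the same group in different clusters are the closest relatives. The proteins bind DNA together with cofactors of the TALE class (Pbx, Meis and Pknox), and the clusters are classical targets of Polycomb silencing and of trithorax activation. Several Hox genes are expressed in the mammary gland during its development.

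Of the 22 members with a matched promoter, 5 that differed strongly between the lines are shown to make the loci concrete. These are Hoxa2 and Hoxa5, which were higher in 4T1 and 4T1.2, and Hoxb4, Hoxb8 and Hoxd8, which had between 0 and 7 counts per library in 4T1.2 and 4T1. Each run holds 250 bases before and 50 bases from the start site, read 5′ to 3′ on the gene's strand (RefSeq, GRCm38). Capitals mark the TATA element TATAAA, the CCAAT box, the Pbx and Hox element TGATTNAT and the AP-1 element TGACTCA on either strand, and no motif overlapped another in these 5 promoters.
Hoxa2 (chr6:52164782-52165081, minus strand): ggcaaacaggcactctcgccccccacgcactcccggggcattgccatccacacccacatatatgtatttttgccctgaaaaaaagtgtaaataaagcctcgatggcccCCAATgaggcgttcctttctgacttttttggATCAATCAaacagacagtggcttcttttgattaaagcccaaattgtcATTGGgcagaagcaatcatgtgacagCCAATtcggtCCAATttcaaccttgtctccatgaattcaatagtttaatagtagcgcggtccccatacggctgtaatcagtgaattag
Hoxa5 (chr6:52204538-52204837, minus strand): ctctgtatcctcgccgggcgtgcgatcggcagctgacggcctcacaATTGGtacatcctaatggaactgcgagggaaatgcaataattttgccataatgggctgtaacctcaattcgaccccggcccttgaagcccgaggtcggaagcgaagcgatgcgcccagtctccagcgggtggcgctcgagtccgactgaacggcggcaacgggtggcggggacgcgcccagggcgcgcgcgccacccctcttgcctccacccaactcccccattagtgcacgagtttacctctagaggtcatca
Hoxb4 (chr11:96318017-96318316, plus strand): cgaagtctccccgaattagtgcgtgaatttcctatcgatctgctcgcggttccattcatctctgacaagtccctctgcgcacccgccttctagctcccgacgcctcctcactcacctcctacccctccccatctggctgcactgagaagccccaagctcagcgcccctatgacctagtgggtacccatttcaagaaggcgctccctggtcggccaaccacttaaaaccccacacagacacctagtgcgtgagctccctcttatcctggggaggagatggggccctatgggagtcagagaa
Hoxb8 (chr11:96281655-96281954, plus strand): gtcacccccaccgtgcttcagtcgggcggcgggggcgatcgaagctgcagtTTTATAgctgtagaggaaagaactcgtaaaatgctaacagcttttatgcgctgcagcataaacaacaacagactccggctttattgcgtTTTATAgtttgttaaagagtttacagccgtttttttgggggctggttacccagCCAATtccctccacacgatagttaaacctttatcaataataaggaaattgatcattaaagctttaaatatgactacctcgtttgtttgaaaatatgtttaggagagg
Hoxd8 (chr2:74704365-74704664, plus strand): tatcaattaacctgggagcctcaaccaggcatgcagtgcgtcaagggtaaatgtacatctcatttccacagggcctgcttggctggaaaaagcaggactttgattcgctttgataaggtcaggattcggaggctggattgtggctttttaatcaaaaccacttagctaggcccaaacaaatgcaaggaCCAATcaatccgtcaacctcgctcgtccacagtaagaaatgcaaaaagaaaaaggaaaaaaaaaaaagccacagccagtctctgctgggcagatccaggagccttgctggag

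The Hoxa2 promoter held 4 CCAAT boxes, at -142, -64, -38 and -28, and a TGATTNAT match at -111. Hoxa5 had 1 CCAAT box at -204 and the highest number of CpG dinucleotides of the 5, with 29. Hoxb8 held TATAAA at -199 and -110 and a CCAAT box at -57, and Hoxd8 a CCAAT box at -62, whereas Hoxb4 held none of the 4 motifs. RefSeq promoters were matched for 22 of the 38 members, with 24 start sites in all. A CCAAT box occurred in 15 of these 24 against 37.4% of all 32851 promoters of that length, and TATAAA in 4 against 13.6%. TGATTNAT occurred in 2 of 24 against 3.22%, and TGACTCA in 1 of 24 against 5.20%. The member promoters had a median of 14.5 CpG dinucleotides against 7 over all promoters. The 10 promoters of members detected in every line had a median of 16 CpG, the 3 of members detected in 66cl4 and 67NR and not in 4T1 or 4T1.2 a median of 13, and the 10 of members detected in no line a median of 21.

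Levels are given as counts scaled by the library's effective size (CPM) and, between genes, per kilobase of gene length (RPKM). A member was taken as detected in a line when both libraries held more than 3 counts. By that limit 12 members were detected in 4T1.2 and 11 in 4T1, whereas 66cl4 had 23 and 67NR had 22. 11 members were detected in every line, of which 8 belonged to Hoxa, 1 to Hoxc and 2 to Hoxd. No Hoxb gene was detected in 4T1 or 4T1.2, while 8 of 10 were detected in both 66cl4 and 67NR. The remaining 15 members were detected in no line, and 4 of them, Hoxb1, Hoxc12, Hoxd1 and Hoxd9, had no count in any library. Among these 15 the largest value in any library was 8 counts, for Hoxb2 in a 66cl4 library (a gene picked out after its values were seen). The 15 were also the members that did not pass the filter on low counts, so 23 members were tested.

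**Figure D1:**
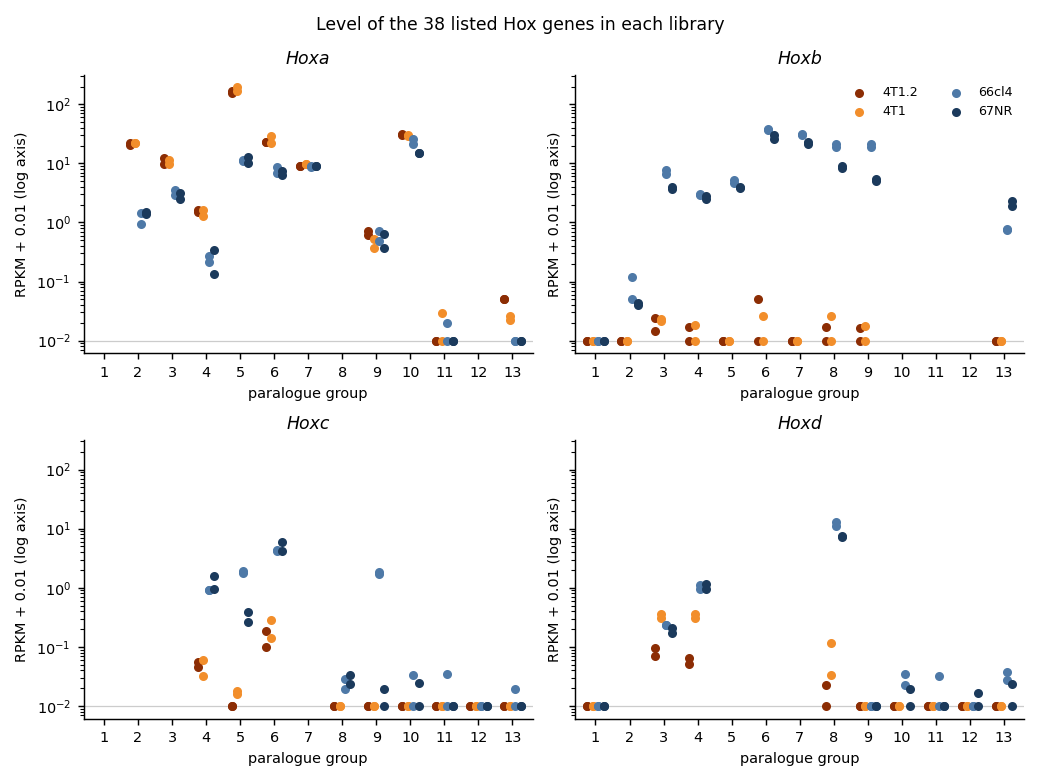
RPKM plus 0.01 (log axis) of each listed member against its paralogue group, in 1 panel per cluster, with 1 point for each of the 8 libraries coloured by line. In the Hoxb panel the 4T1.2 and 4T1 points lie at or near the grey line that stands for 0 counts, and in the Hoxa panel groups 2 to 6 lie higher in 4T1.2 and 4T1 than in 66cl4 and 67NR.

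Summed over its members, Hoxa stood at 257 and 266 RPKM in the 4T1.2 libraries and at 273 and 292 RPKM in the 4T1 libraries. The 66cl4 libraries gave 55.3 and 58.0 RPKM and the 67NR libraries 46.2 and 48.5 RPKM. Hoxb gave between 0.0132 and 0.0610 RPKM in the 4 libraries of 4T1.2 and 4T1, against 121 and 128 RPKM in 66cl4 and 73.6 and 80.2 RPKM in 67NR. Hoxc ranged from 0.133 to 0.301 RPKM in 4T1.2 and 4T1 and from 5.46 to 8.92 RPKM in 66cl4 and 67NR. Hoxd stood at 0.114 and 0.140 RPKM in 4T1.2 and at 0.668 and 0.759 RPKM in 4T1, and ranged from 8.33 to 14.02 RPKM in 66cl4 and 67NR. The libraries of the 2 pairs of lines did not overlap for any of the 4 cluster sums. Hoxa therefore carried between 99.6% and 99.9% of the members' summed RPKM in each 4T1.2 and 4T1 library, against 27.8% to 34.6% in the libraries of 66cl4 and 67NR. The corresponding share of Hoxb was 55.1% to 61.3% in 66cl4 and 67NR. Since these are bulk samples, fewer cells with a transcript and less transcript per cell cannot be told apart.

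**Figure D2:**
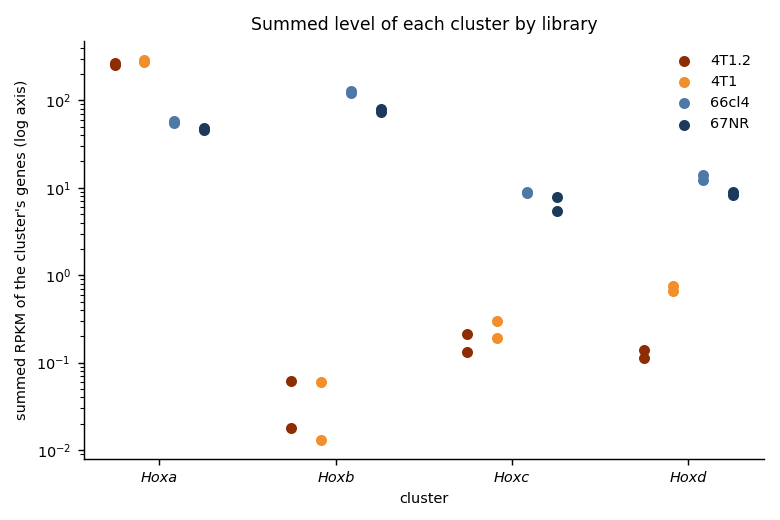
Summed RPKM of the listed members of each cluster (log axis), with 1 point per library and 2 libraries per line. Hoxa lies between 257 and 292 RPKM in 4T1.2 and 4T1 and between 46.2 and 58.0 RPKM in 66cl4 and 67NR, and the other clusters lie the opposite way.

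4T1 and 4T1.2 were compared with 66cl4 and 67NR, the lines of lower metastatic potential. Since 4T1.2 is a clone of 4T1, metastatic potential cannot be told apart from lineage here. The p-values measure spread between samples of a line, not between lines. In this pooled comparison, 6 tested members were higher in 4T1 and 4T1.2, all of them Hoxa genes, and 14 were lower, of which 8 were Hoxb, 4 Hoxc and 2 Hoxd genes. Hoxa7, Hoxa9 and Hoxd3 did not pass the threshold of an adjusted p of 0.05 (edgeR quasi-likelihood test, Benjamini-Hochberg adjustment over 13923 genes). Over all genes tested, 38.1% were called higher and 38.6% lower in 4T1 and 4T1.2. The median log2 fold change of the tested members was -4.86 against -0.01 over all genes tested, and by cluster it was 1.79 for Hoxa, -11.17 for Hoxb, -5.59 for Hoxc and -3.05 for Hoxd. With members that had no count in 4T1 and 4T1.2 set to their bound, the Hoxb median was -10.22 and the Hoxc median -5.80. The bound is the fold against 3 counts summed over the group's libraries, and all bounds below use it.

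Hoxa5, which encodes a group 5 factor, had the highest RPKM of the members in 4T1.2 and 4T1, at 164 ± 7.90 and 182 ± 18.0 RPKM (SD, n = 2). It stood at 297 and 317 CPM in 4T1.2, 318 and 366 CPM in 4T1, 20.7 and 21.3 CPM in 66cl4, and 19.2 and 23.6 CPM in 67NR. The 2 pairs of lines were far apart, with a log2 fold change of 3.93 ± 0.09 (SE, adjusted p = 1.31e-10 by edgeR), which is 15.2-fold. Hoxa2, a determinant of hindbrain and second-arch identity, stood at 36.9 and 34.9 CPM in 4T1.2, 37.2 and 37.7 CPM in 4T1, 2.41 and 1.56 CPM in 66cl4, and 2.29 and 2.46 CPM in 67NR. Its log2 fold change of 4.07 ± 0.12 (edgeR adjusted p = 7.48e-10) was the largest increase among the members.

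Hoxa3, a factor of pharyngeal organ development, stood at 31.8 and 24.9 CPM in 4T1.2 and 29.5 and 25.0 CPM in 4T1. The 66cl4 libraries held 7.34 and 9.11 CPM and the 67NR libraries 6.30 and 8.14 CPM, so that Hoxa3 was 3.59-fold higher in 4T1 and 4T1.2 (log2 1.84 ± 0.13, edgeR adjusted p = 5.13e-07). Of the exon bases of Hoxa3 in the GENCODE annotation, 25.4% also lie in genes on the opposite strand. So do 20.4% of those of Hoxa7 and a smaller share of those of Hoxa4. The counts of these genes are uncertain without strand. Hoxa4, next to Hoxa3, was a low gene, with 1.95 to 2.48 CPM in the 4 libraries of 4T1.2 and 4T1 and 0.191 to 0.503 CPM in those of 66cl4 and 67NR. Hoxa4 rose 6.19-fold (log2 2.63 ± 0.24, edgeR adjusted p = 4.09e-06). Hoxa6, at 15.5 to 20.5 CPM against 4.43 to 6.14 CPM, rose 3.33-fold (log2 1.73 ± 0.12, edgeR adjusted p = 6.14e-07).

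Hoxa7, Hoxa9 and Hoxa10, which lie at the posterior side of the listed cluster and are known from blood cell development, differed less. Hoxa7 stood at 17.6 and 17.8 CPM in 4T1.2, 19.4 and 18.8 CPM in 4T1, 17.4 and 17.1 CPM in 66cl4, and 17.6 and 17.9 CPM in 67NR. The libraries overlapped, with a log2 difference of 0.07 ± 0.07 (edgeR adjusted p = 0.356). Hoxa9 was low in every line, from 0.819 to 1.64 CPM, and its log2 difference was -0.02 ± 0.22 (edgeR adjusted p = 0.932). Hoxa10 stood at 94.6 and 97.9 CPM in 4T1.2, 91.0 and 96.7 CPM in 4T1, 67.1 and 80.9 CPM in 66cl4, and 47.7 and 46.6 CPM in 67NR. It was 1.61-fold higher in 4T1 and 4T1.2 (log2 0.69 ± 0.07, edgeR adjusted p = 1.33e-05). Along the cluster the log2 fold changes were thus 1.73 or more for the tested members of groups 2 to 6 and 0.69 or less for those of groups 7 to 10. Hoxa11 and Hoxa13 had at most 3 counts in any library.

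**Figure D3:**
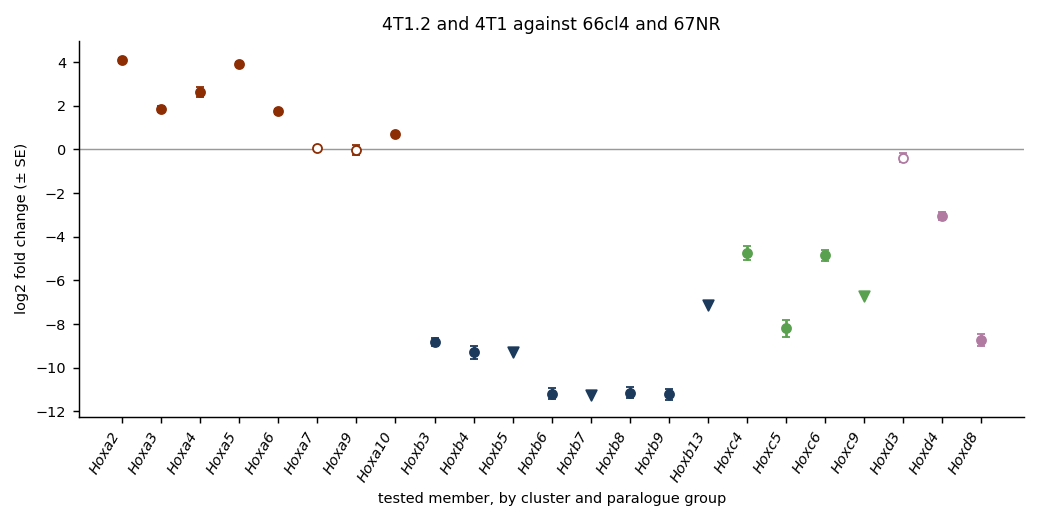
Log2 fold change of 4T1.2 and 4T1 over 66cl4 and 67NR for the 23 tested members in order of cluster and paralogue group, with bars for the SE. Filled points passed the edgeR threshold, open points did not, and triangles show the bound for members with no count in 4T1.2 and 4T1. Hoxa genes lie between -0.02 and 4.07 and every Hoxb point lies below every Hoxa point.

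Hoxb genes were transcribed in 66cl4 and 67NR and were at or near 0 in 4T1 and 4T1.2. Hoxb6, a group 6 factor, had the highest RPKM of the members in 66cl4 and 67NR, at 37.7 and 28.1 RPKM on average. It stood at 50.3 and 49.3 CPM in 66cl4 and 34.3 and 40.1 CPM in 67NR, against 0.0528 and 0 CPM in 4T1.2 and 0 and 0.0216 CPM in 4T1. Its 4 counts over the 4T1 and 4T1.2 libraries gave a ratio of 2408 (95% counting interval 940.1 to 8840), with a fitted log2 fold change of -11.19 (edgeR adjusted p = 1.08e-10). Hoxb7, with 37.9 and 39.6 CPM in 66cl4 and 27.4 and 29.6 CPM in 67NR, had no count in 4T1 or 4T1.2 and was at least 2469-fold lower there (edgeR adjusted p = 5.76e-10).

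Hoxb8, a regulator of blood and nervous system development whose promoter is printed above, stood at 50.2 and 57.1 CPM in 66cl4 and 23.5 and 22.2 CPM in 67NR. With 3 counts over the 4 libraries of 4T1.2 and 4T1 its ratio was 2759 (95% counting interval 943.8 to 13384). Hoxb9, known for its part in mammary gland development, stood at 50.4 and 56.7 CPM in 66cl4 and 14.8 and 13.7 CPM in 67NR. It had 2 counts over the 4T1 and 4T1.2 libraries, a ratio of 3637 (interval 1006 to 30040). The adjusted p was 9.68e-11 for Hoxb8 and 7.44e-11 for Hoxb9 (edgeR).

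Per kilobase, Hoxb3, Hoxb4, Hoxb5 and Hoxb13 lay below the other 4 detected Hoxb genes in each of the 66cl4 and 67NR libraries. Hoxb3 stood at 25.0 and 29.3 CPM in 66cl4 and 13.5 and 15.0 CPM in 67NR, and its 9 counts over the other libraries gave a ratio of 503.7 (95% counting interval 265.0 to 1102). Of its exon bases in the GENCODE annotation, 52.9% also lie in a gene on the opposite strand. The counts used another annotation, and such reads could not be separated because the libraries carry no strand. Hoxb4, a factor of blood stem cells, ranged from 6.30 to 7.79 CPM in 66cl4 and 67NR and had 2 counts over 4T1 and 4T1.2, a ratio of 799.1 (interval 220.8 to 6605). Hoxb5, at 7.15 to 9.99 CPM, had no count in 4T1 or 4T1.2 and was at least 618-fold lower. Hoxb13, the most posterior gene of the cluster and known from the prostate, stood at 0.972 and 1.00 CPM in 66cl4 and 2.48 and 2.98 CPM in 67NR. It also had no count in 4T1 or 4T1.2 and was at least 142-fold lower there. All 4 genes passed the edgeR threshold, with adjusted p from 9.08e-11 to 4.83e-07.

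All 4 tested Hoxc genes and 2 of 3 tested Hoxd genes were lower in 4T1 and 4T1.2, the exception being Hoxd3. Hoxc6, a factor expressed in the mammary gland, stood at 0.141 and 0.282 CPM in 4T1.2, 0.213 and 0.431 CPM in 4T1, 7.05 and 6.76 CPM in 66cl4, and 6.74 and 9.48 CPM in 67NR. The log2 fold change was -4.86 ± 0.23 (edgeR adjusted p = 2.94e-08), 29.1-fold. Hoxc4 ranged from 0.0431 to 0.0983 CPM in 4T1.2 and 4T1 and from 1.77 to 3.10 CPM in 66cl4 and 67NR, 26.9-fold lower in 4T1 and 4T1.2 (edgeR adjusted p = 2.54e-07). Hoxc5 had 2 counts over the 4T1 and 4T1.2 libraries, a ratio of 314.2 (95% counting interval 86.6 to 2601), with 4.75 and 5.16 CPM in 66cl4 and 0.682 and 1.05 CPM in 67NR.

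Hoxc9, a thoracic-level patterning gene, was detected in 66cl4 and in no other of the 4 lines, at 3.12 and 2.90 CPM. The 67NR libraries held 0 and 1 counts, and the 4T1.2 and 4T1 libraries held none. Hoxc9 was at least 114-fold higher in 66cl4 than in 4T1.2 and at least 108-fold higher than in 4T1 (edgeR adjusted p = 2.22e-06 and 2.33e-06). Its call in the pooled comparison (adjusted p = 0.00624) rested on 66cl4, since 67NR did not differ from 4T1.2 or 4T1 beyond the threshold (adjusted p = 0.262 and 0.272, edgeR). Without 67NR replicate 2 the pooled adjusted p was 1.

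Hoxd8 was the main Hoxd gene, at 15.6 and 18.2 CPM in 66cl4 and 10.3 and 10.9 CPM in 67NR, against 0.0176 and 0 CPM in 4T1.2 and 0.0328 and 0.151 CPM in 4T1. The log2 fold change was -8.74 ± 0.27 (edgeR adjusted p = 1.09e-09). Hoxd4 stood at 0.106 and 0.141 CPM in 4T1.2, 0.884 and 0.777 CPM in 4T1, 2.83 and 2.46 CPM in 66cl4, and 2.46 and 2.95 CPM in 67NR. It was 8.27-fold lower in 4T1 and 4T1.2 (log2 -3.05 ± 0.18, edgeR adjusted p = 1.65e-07), a mean of log2 values over unlike lines. Against 66cl4 and 67NR, Hoxd4 was 21.0-fold and 21.7-fold lower in 4T1.2 and 3.16-fold and 3.26-fold lower in 4T1. Hoxd3 had a log2 difference of -0.38 ± 0.21 (edgeR adjusted p = 0.124), with 4T1 above and 4T1.2 below the other lines. Scaled by library totals, which moved the median of all genes to -0.14, Hoxd3 passed as lower (log2 -0.51, edgeR adjusted p = 0.0426).

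66cl4 and 67NR were compared as the 2 lines of lower metastatic potential. Here 9 tested members were higher and 1 was lower in 66cl4, 13 did not pass, and over all genes tested 22.3% were higher and 22.4% lower. The members' median log2 fold change was 0.23 against 0.00 over all genes. Hoxc9 was 295.9-fold higher in 66cl4 by counts (95% counting interval 52.7 to 11728, 1 count in 67NR, edgeR adjusted p = 1.38e-05), and Hoxc5 was 5.52-fold higher (log2 2.47 ± 0.24, adjusted p = 5.75e-05). Within Hoxb the log2 fold changes increased in gene order from Hoxb4 to Hoxb9, though the differences between neighbouring genes were not tested. The log2 fold change was 0.18 ± 0.18 for Hoxb4 and 0.36 ± 0.15 for Hoxb5, which did not pass (edgeR adjusted p = 0.436 and 0.0865). It was 0.42 ± 0.15 for Hoxb6, 0.44 ± 0.11 for Hoxb7, 1.23 ± 0.15 for Hoxb8 and 1.91 ± 0.14 for Hoxb9. The last 4 had adjusted p of 0.0489, 0.0141, 0.000133 and 6.24e-06 (edgeR).

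The order along Hoxb was broken at both ends. Hoxb3 was 1.90-fold higher in 66cl4 (log2 0.93 ± 0.13, edgeR adjusted p = 0.000416), although its antisense overlap applies here too. Hoxb13, beyond Hoxb9, went the other way and was 2.78-fold higher in 67NR (log2 -1.48 ± 0.23, edgeR adjusted p = 0.00149). Hoxa10 and Hoxd8 were 1.57-fold and 1.59-fold higher in 66cl4 (edgeR adjusted p = 0.000727 and 0.0142). Hoxb6 did not pass with library totals, without annotation removal or in a newer quasi-likelihood fit (edgeR adjusted p = 0.099, 0.0684 and 0.065). The call of Hoxb6 was lost without any 1 of the 4 libraries compared, with adjusted p from 0.0952 to 0.295. Those of Hoxb7 and Hoxd8 were lost without 66cl4 replicate 2 or either 67NR replicate, with adjusted p from 0.0578 to 0.105. Without 67NR replicate 1 Hoxc4 passed as lower in 66cl4 (adjusted p = 0.0429).

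**Figure D4:**
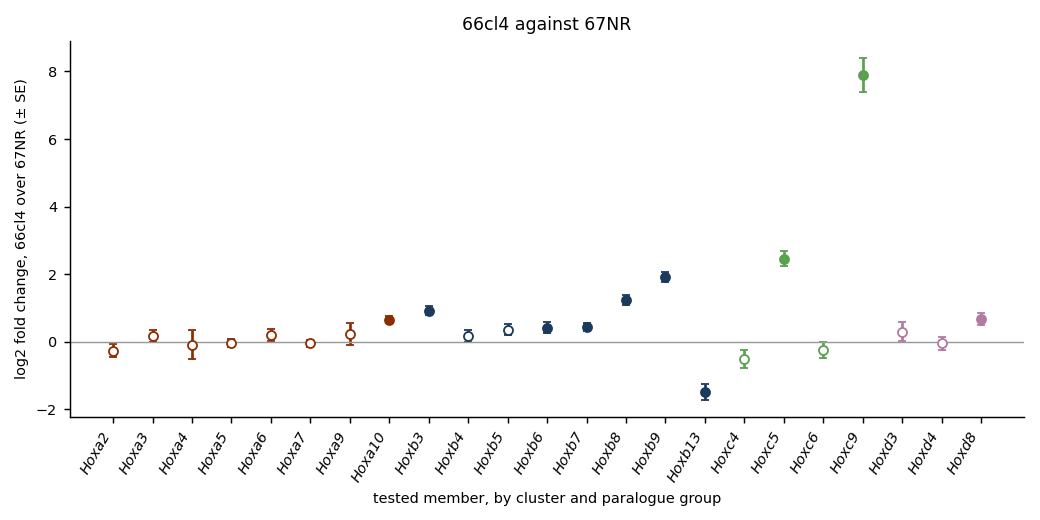
Log2 fold change of 66cl4 over 67NR for the 23 tested members, with bars for the SE, filled where the edgeR threshold was passed. The bar of Hoxc9, with 1 count in 67NR, is too short. From Hoxb4 to Hoxb9 the points run from 0.18 to 1.91, Hoxb13 lies at -1.48 and Hoxc9 at 7.90.

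4T1.2 was compared with 4T1, the line from which it was cloned. No member was higher in 4T1.2 and 2 were lower, Hoxd3 and Hoxd4, while 21 did not pass (edgeR). Of all 13923 genes, 9.37% passed as higher and 9.93% as lower in 4T1.2. The count of higher members was also 0 by limma-voom and DESeq2, and at an unadjusted p under 0.05 it was 0 as well. Hoxd3, whose level is under 1 CPM in most libraries and which was picked out after its values were seen, stood at 0.176 and 0.247 CPM in 4T1.2, 0.868 and 1.01 CPM in 4T1, 0.641 and 0.647 CPM in 66cl4, and 0.464 and 0.567 CPM in 67NR. The 4T1.2 libraries were the lowest of the 8, with a log2 fold change against 4T1 of -2.13 ± 0.30 (edgeR adjusted p = 0.00105). Hoxd4 was 6.65-fold lower in 4T1.2 than in 4T1 (log2 -2.73 ± 0.33, edgeR adjusted p = 0.00043). Hoxd8, with 1 count in 4T1.2 against 9 in 4T1, did not pass (edgeR adjusted p = 0.107), and it passed without 4T1 replicate 1 (adjusted p = 0.0195). Of the GENCODE exon bases of Hoxd3 and Hoxd4, 62.9% and 52.3% also belong to other annotated genes, so the counts of these neighbours are uncertain. Among Hoxa genes the log2 differences between 4T1.2 and 4T1 ranged from -0.15 ± 0.11 for Hoxa5 to 0.59 ± 0.31 for Hoxa9, and none passed.

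Each of the 4T1 lines was also set against each of the other lines, comparisons that share libraries with each other and with the pooled comparison. Against 66cl4, 4T1.2 had 6 members higher and 15 lower, where 34.3% and 34.5% of all genes were called. Against 67NR it had 6 higher and 14 lower, where 33.7% and 34.1% of all genes were called. 4T1 had 6 members higher and 14 lower than 66cl4 (34.9% and 35.2% of all genes), and 7 higher and 13 lower than 67NR (33.9% and 34.4%). Hoxa7 and Hoxa9 passed in none of these 4 comparisons, with edgeR adjusted p from 0.193 to 0.967. Hoxd3 made the difference between the 4T1 lines. It was lower in 4T1.2 than in either line of lower potential, 66cl4 or 67NR (log2 -1.60 ± 0.32 and -1.30 ± 0.33, adjusted p = 0.00151 and 0.0058) and higher in 4T1 than in 67NR (log2 0.83 ± 0.26, adjusted p = 0.0179, edgeR).

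When members of the same paralogue group were summed over the clusters, group 3 (Hoxa3, Hoxb3 and Hoxd3) gave 11.2 ± 1.92 RPKM in 4T1.2, 11.04 ± 1.23 RPKM in 4T1, 10.8 ± 1.30 RPKM in 66cl4 and 6.85 ± 0.824 RPKM in 67NR (SD over 2 libraries). The libraries of 4T1.2, 4T1 and 66cl4 overlapped in this sum, although Hoxa3 supplied 11.1 and 10.7 RPKM of it in 4T1.2 and 4T1 and 3.23 RPKM in 66cl4, where Hoxb3 supplied 7.30 RPKM. Group 5 gave 164 ± 7.90 and 182 ± 18.0 RPKM in 4T1.2 and 4T1 and 18.0 ± 0.0760 and 15.6 ± 1.89 RPKM in 66cl4 and 67NR. Groups 6 and 7 went the other way, with 23.3 and 9.06 RPKM in 4T1.2 against 49.9 and 39.4 RPKM in 66cl4. Group 8, which Hoxa lacks, gave 0.00952 and 0.0727 RPKM in 4T1.2 and 4T1, against 32.1 and 16.1 RPKM in 66cl4 and 67NR. Group 9 gave 0.667 and 0.440 RPKM against 22.2 and 5.76 RPKM. By position, groups 5 to 8 held the largest share of the members' summed RPKM in every library, from 67.6% to 77.6%. Groups 9 to 13 held 10.6% and 10.8% in 4T1, 11.96% and 12.003% in 4T1.2, 21.9% and 23.9% in 66cl4, and 15.7% and 17.2% in 67NR. Counted as CPM of the library total, not per kilobase, the shares of groups 9 to 13 were 17.3% and 17.7% in 4T1, 19.3% in both 4T1.2 libraries, 31.5% and 33.6% in 66cl4, and 23.9% and 26.2% in 67NR.

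Non-coding genes lie among the clusters, and 11 of 20 listed had a row in the count table. Of these, 4 were tested in the pooled comparison. In 4T1 and 4T1.2, 1 was higher and 2 were lower, where 38.1% and 38.6% of all genes were called. Hoxaas3, a transcript antisense to the Hoxa5 to Hoxa6 interval (chr6:52201124-52213597), stood at 3.72 and 3.25 CPM in 4T1.2, 4.52 and 3.88 CPM in 4T1, 1.06 and 0.960 CPM in 66cl4, and 1.36 and 0.908 CPM in 67NR. It was higher in 4T1 and 4T1.2 (log2 1.86 ± 0.16, edgeR adjusted p = 2.55e-06). In the GENCODE annotation, the exons of Hoxa5 and Hoxa6 share no base with those of another gene. Mira, beside Hoxa7, lay between 15.1 and 19.0 CPM in all libraries, with a log2 fold change of -0.17 ± 0.07 (edgeR adjusted p = 0.0449) that did not pass without any 1 library (adjusted p from 0.0626 to 0.146). Hoxd3os1, which overlaps Hoxd3, stood at 0.0176 and 0.0529 CPM in 4T1.2 and 0.278 and 0.280 CPM in 4T1, and was lower in 4T1.2 (log2 -2.90 ± 0.58, edgeR adjusted p = 0.00738).

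The hairpin row Mir10a, between Hoxb4 and Hoxb5 (chr11:96317165-96317274), had no count in 4T1.2 and 4T1, 7 and 3 counts in 66cl4 and 10 and 14 counts in 67NR. It was at least 13.3-fold lower in 4T1 and 4T1.2 (edgeR adjusted p = 0.000438). The row lies within the span of Hoxb3 (chr11:96307101-96347930), so its counts cannot be told apart from those of longer transcripts there. Mir10b in Hoxd, Mir196b in Hoxa, Mir196a-1, Mir196a-2 and Mir615 had 0 to 2 counts in every library. Mature miRNAs were not measured by these libraries, which hold fragments of longer RNA. The mature sequences (RefSeq, GRCm38) are given because miR-10a and miR-10b share a seed, as do miR-196a and miR-196b. Capitals mark the seed, bases 2 to 8.
mmu-miR-10a-5p: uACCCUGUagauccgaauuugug
mmu-miR-10b-5p: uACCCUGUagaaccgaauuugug
mmu-miR-196a-5p: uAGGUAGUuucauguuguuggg
mmu-miR-196b-5p: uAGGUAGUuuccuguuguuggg

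Genes that flank the clusters were called in both directions. Of 24 listed coding neighbours, 22 had a row and 18 were tested. In 4T1 and 4T1.2, 7 of these were higher and 7 lower, where 38.1% and 38.6% of all genes were called. Their median log2 fold change was -0.09. Skap2, an adaptor protein gene 149.9 kb from the listed Hoxa genes, was higher in 4T1 and 4T1.2 like most of Hoxa, at 108 to 140 CPM against 34.9 to 54.0 CPM (log2 1.45 ± 0.07, edgeR adjusted p = 2.07e-08). Snx10, on the same side, was lower there (log2 -0.81 ± 0.07, edgeR adjusted p = 1.86e-06). Skap1, an adaptor gene 96.3 kb from Hoxb, was low throughout and lower in 4T1 and 4T1.2, like Hoxb, at 0.0352 to 0.302 CPM against 0.446 to 0.778 CPM (log2 -2.46 ± 0.35, edgeR adjusted p = 0.000108). Ttll6, 28.1 kb from Hoxb, was also lower there (log2 -1.65 ± 0.37, edgeR adjusted p = 0.00233), at most 0.446 CPM in any library. It stood at 0.354 and 0.446 CPM in 66cl4, 0.109 and 0.178 CPM in 67NR, and 0.0529 to 0.0983 CPM in 4T1.2 and 4T1. Unlike Hoxb, Ttll6 in 67NR thus lay nearer to 4T1.2 and 4T1 than to 66cl4. Skap1 and Ttll6 were named after their values were seen. At 420.4 kb from Hoxb, Cbx1, which encodes a heterochromatin protein, was higher in 4T1 and 4T1.2, at 130 to 152 CPM against 67.8 to 96.2 CPM (log2 0.81 ± 0.06, adjusted p = 1.36e-06), opposite to Hoxb. Calcoco1, 199.0 kb from Hoxc, was lower in 4T1 and 4T1.2 (log2 -1.26 ± 0.06, adjusted p = 5.13e-08, edgeR). The even-skipped genes Evx1 and Evx2, next to the posterior ends of Hoxa and Hoxd, had no count in any library.

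All 9 listed TALE cofactor genes were tested. In 4T1 and 4T1.2, 5 were higher and 3 lower, where 38.1% and 38.6% of all genes were called. The median log2 fold change was 0.94 against -0.01 over all genes. Pbx3 stood at 57.0 and 55.8 CPM in 4T1.2, 45.0 and 41.2 CPM in 4T1, 19.7 and 19.4 CPM in 66cl4, and 26.8 and 24.0 CPM in 67NR (log2 1.15 ± 0.07, edgeR adjusted p = 1.74e-07). Meis1 ranged from 10.5 to 13.3 CPM against 5.16 to 7.45 CPM (log2 0.94 ± 0.09, adjusted p = 6.6e-06), and Meis3 from 12.97 to 19.2 CPM against 5.29 to 10.6 CPM (log2 1.03 ± 0.08, adjusted p = 1.61e-06, edgeR). Meis2 was lower in 4T1 and 4T1.2, at 15.1 to 15.7 CPM against 21.1 to 26.4 CPM (log2 -0.60 ± 0.07, edgeR adjusted p = 2.99e-05).

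**Figure D5:**
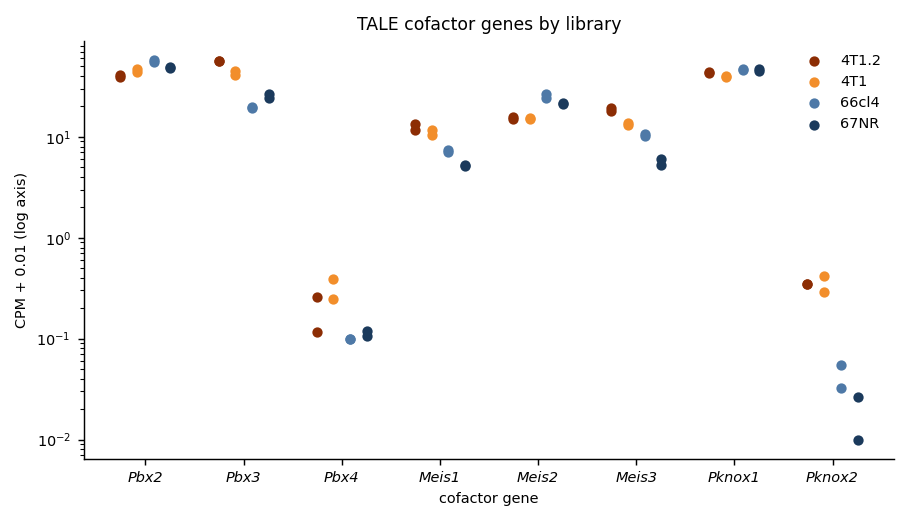
CPM plus 0.01 (log axis) of the 8 TALE cofactor genes that passed in the pooled comparison, with 1 point per library and 2 libraries per line. Pbx3, Meis1 and Meis3 lie higher and Meis2 lower in the 4T1.2 and 4T1 libraries, and Pbx4 and Pknox2 lie below 0.5 CPM.

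Polycomb group genes, which encode the machinery that methylates H3K27 and compacts silent Hox chromatin, were all tested. Of 24, 6 were higher and 15 lower in 4T1 and 4T1.2, where 38.1% and 38.6% of all genes were called. The median log2 fold change was -0.29. Ezh1, a catalytic subunit of PRC2, stood at 20.6 and 20.1 CPM in 4T1.2, 22.7 and 21.4 CPM in 4T1, 61.9 and 62.7 CPM in 66cl4, and 64.5 and 59.1 CPM in 67NR (log2 -1.55 ± 0.06, edgeR adjusted p = 1.07e-08). Its paralogue Ezh2 did not pass (log2 0.03 ± 0.06, edgeR adjusted p = 0.706). Phf1, a PRC2 accessory gene, and the PRC1 genes Pcgf5 and Pcgf1 were lower in 4T1 and 4T1.2 by log2 -1.03 ± 0.10, -0.84 ± 0.07 and -0.75 ± 0.08 (edgeR adjusted p from 1.26e-06 to 1.54e-05). Among 11 trithorax group and H3K27 demethylase genes, 3 were higher and 4 lower, beside those same shares over all genes. Their median log2 fold change was -0.01. The lower genes were the methyltransferases Kmt2a and Kmt2b, their partner Ash2l and the demethylase Kdm6a, with log2 fold changes from -0.97 ± 0.16 to -0.82 ± 0.05.

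Hox clusters respond to retinoic acid in the embryo, and Cdx factors act on them directly. Of the 19 genes listed for these, 10 were tested. In 4T1 and 4T1.2, 2 were higher and 5 lower, where 38.1% and 38.6% of all genes were called. The median log2 fold change was -0.31. Cdx1, Cdx2 and Cdx4 did not pass the filter on low counts. Cyp26b1, which degrades retinoic acid, stood at 3.34 to 8.93 CPM in 4T1.2 and 4T1 and 13.4 to 28.8 CPM in 66cl4 and 67NR (log2 -1.89 ± 0.11, adjusted p = 1.12e-07). The receptor genes Rarg and Rxrb were lower in 4T1 and 4T1.2 (log2 -0.84 ± 0.07 and -0.42 ± 0.06, adjusted p = 1.98e-06 and 0.000159, edgeR).

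Cell type markers also differed between the 2 pairs of lines, though the mesenchymal list did not go all in 1 direction. Over all genes tested, 38.1% were called higher and 38.6% lower in 4T1 and 4T1.2. Of 8 epithelial markers 7 were tested and all 7 were higher in 4T1 and 4T1.2, whose libraries summed to 1840 to 3437 CPM against 465.5 to 722.5 CPM in 66cl4 and 67NR. Of 9 mesenchymal markers 7 were lower and 2 higher in 4T1 and 4T1.2. The sums, 5569 to 7571 CPM against 3495 to 5988 CPM, overlapped. Vim alone supplied 4744 to 6907 CPM of the sums in 4T1.2 and 4T1 and was itself higher there (log2 1.16 ± 0.14, edgeR adjusted p = 2.74e-05). Epcam had no count in 66cl4 and 1 in 67NR, and Cdh2 had 2 counts over 4T1.2 and 4T1. The 8 leucocyte markers summed to at most 5.61 CPM and the 5 endothelial markers to at most 3.70 CPM in any library, and Cd3e and Adgre1 had no count in any. Of each of these lists 2 markers were tested, and both were higher in 4T1 and 4T1.2. The part of these marker differences in the Hox levels was not tested.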

How the data were processed

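Polyadenylated RNA of the 4 lines (TruSeq RNA v2, unstranded) was sequenced, aligned to mm10 and counted per gene with featureCounts and its NCBI annotation by the authors, who deposited raw counts. The 8 single-sample files equalled the columns of the series table. Members and gene lists were chosen with earlier results of these data known. Genes without an entry in the gene table, predicted genes and ribosomal genes (5.33% to 7.95% of counts) were removed after filterByExpr, which 15269 genes passed, leaving 13923. The quasi-likelihood test of edgeR 4.0.16 (R 4.3.3, TMM scaling, prior count 0.125) was fitted to all 8 libraries with a mean per line, 4 residual degrees of freedom and p-values adjusted by Benjamini-Hochberg over these genes. The biological coefficient of variation was 9.73%. An SE is the absolute log2 fold change divided by the square root of the test's F statistic. It is too small where 1 side has few counts. The pooled comparison set the mean of 4T1.2 and 4T1 against that of 66cl4 and 67NR. CPM used the effective library size and RPKM the deposited gene length. Fold bounds used 3 counts over a group, and counting intervals were 95% exact binomial, which cover counting error only. The method was tested on simulated data. Members with at least 1 CPM on average in a line were given by library, and of each list at most 4 genes with non-overlapping libraries and the largest change were named, with exceptions stated; some genes are not reported here. Coordinates are mm10 (GRCm38). Exon overlaps were taken from the GENCODE annotation, whose gene models differ from the counted NCBI models. Hoxb3, for example, has 4251 exon bases in GENCODE against a counted length of 3721 bases. Alternatives were other scalings, filters, annotation removal, DESeq2 1.42.0, limma-voom (limma 3.58.1), a newer quasi-likelihood fit, a test for changes beyond 1 on the log2 scale, another prior count, a replicate block and 8 fits leaving out a library. The paper calls the 2 samples of a line biological replicates without naming separate cultures. The p-values therefore measure the spread between these samples, which may be technical.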

Additional observations from a re-analysis of the deposited data

How the results depend on the processing

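Of the counts and shares recomputed under 11 alternatives and 8 fits that left out a library, 716 values stayed close and 68 moved. With a test for changes beyond 1 on the log2 scale, genes higher and lower numbered 1835 and 1786 in the pooled comparison, 594 and 462 for 66cl4 against 67NR, 66 and 237 for 4T1.2 against 4T1, 1715 and 1797 for 4T1.2 against 66cl4, 1749 and 1681 for 4T1.2 against 67NR, 1879 and 1808 for 4T1 against 66cl4, and 1832 and 1574 for 4T1 against 67NR. Members higher and lower in 66cl4 than in 67NR were then 3 and 0. In the pooled comparison the higher and lower counts became 2 and 0 for TALE, 0 and 1 for Polycomb, 0 and 0 for trithorax, 1 and 2 for Cdx and retinoic acid, and 1 and 2 for neighbours, with 1 non-coding gene lower. Requiring 10 counts in every library drops members near 0 from the test, so that lower members numbered 0 in the pooled comparison, 0 for 4T1 against 66cl4 and against 67NR, and 1 each for 4T1.2 against 4T1, 66cl4 and 67NR, while 1 member was higher and 0 lower in 66cl4 than in 67NR. TALE then had 3 higher and the Cdx and retinoic acid list 0 higher. Lower non-coding genes also numbered 1 with that filter, with DESeq2 size factors, no filter, no annotation removal, the DESeq2 Wald test and in each of the 8 left-out fits (1 to 1), where Mira was lost. Over the left-out fits, genes higher in 66cl4 than in 67NR ranged from 2046 (without 67NR replicate 2) to 3491 and lower members from 1 to 2. Genes higher in 4T1.2 than in 4T1 ranged from 602 to 1542 and lower genes from 770 to 1565, the lowest counts coming without a 4T1.2 replicate. The pooled log2 difference of Hoxa9, never called, ranged from -0.17 to 0.22, and that of Hoxa7 was reversed to -0.057 with library totals, a scaling that moved the median of all genes in that comparison from -0.01 to -0.14. At a mean of 1 CPM, 7 members were detected in 4T1. Hoxc4, Hoxc6, Hoxd3 and Hoxd4 also fell below that mean in 4T1.2, at 0.0793, 0.212, 0.212 and 0.123 CPM. By CPM of the library total instead of RPKM, Hoxd held 0.0678% of the members' sum in 4T1.2 and 0.343% in 4T1, and Hoxa 99.6% in 4T1. In 66cl4 the shares were 31.8% for Hoxa, 59.1% for Hoxb, 4.11% for Hoxc and 4.97% for Hoxd, and in 67NR 39.1%, 51.2% and 5.29% for Hoxa, Hoxb and Hoxd.

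Replicate differences correlated at 0.270 between 4T1.2 and 4T1 and from -0.123 to 0.0735 between the other pairs of lines. Whether a replicate number marks samples handled together was not tested. A replicate block gave 6 members higher and 14 lower in the pooled comparison. It gave 9 and 1 for 66cl4 against 67NR, and 0 and 2 for 4T1.2 against 4T1. Over all genes tested, the block gave 5362 and 5436, 3224 and 3202, and 1414 and 1473 genes in the same order. Without the block, 4T1.2 against 4T1 had 1305 and 1382.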
